A study of Homo sapiens with 6 samples.

Results

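Histone marks over 9 genes of cell adhesion to the basement membrane were examined in HSC3 cells, an established line of oral squamous cell carcinoma (OSCC). The genes were the hemidesmosome genes ITGA6, ITGB4, COL17A1 and PLEC, the laminin-332 genes LAMA3 and LAMB3, and the integrin genes ITGA3, ITGB1 and ITGA5. They were chosen by name, and the peak regions that overlapped each gene body or the 5 kb upstream of it in hg19 were taken from all 4 peak lists. All 9 of the 9 genes were found among the 24135 genes of the annotation used.

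Cells had been transfected for 72 h with a control siRNA (siCONT) or with an siRNA against the long noncoding RNA DLEU1 (siDLEU1). Chromatin was precipitated with an antibody to H3K27ac or to H3K4me3, and each combination of siRNA and antibody was sequenced once. No value below therefore has a replicate check, no p-value is given, and a difference between the siRNAs cannot be told apart from a difference between libraries. The input libraries were not analysed here, and RNA was not measured in these lists, so the depletion of DLEU1 was not examined.

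Hemidesmosomes anchor the basal cells of stratified epithelia to the basement membrane. Integrin α6β4, made from ITGA6 and ITGB4, grips laminin-332 outside the cell, and plectin (PLEC) ties it to keratin filaments inside, while collagen XVII (COL17A1) spans the membrane beside it. LAMA3 and LAMB3 encode chains of laminin-332. ITGB1 pairs with ITGA3 as another laminin-332 receptor and with ITGA5 as the fibronectin receptor, both of which act outside hemidesmosomes. H3K4me3 marks the starts of active genes, and H3K27ac marks active promoters and enhancers.

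The lists held 19705 H3K27ac regions in siCONT cells and 17672 in siDLEU1 cells, and 58582 and 56943 H3K4me3 regions. Depth was recovered from the lists at 21.5, 29.4, 28.4 and 22.3 M reads in the same order, taking the genome size used by the caller as 2.7 Gb. The median region held 75, 68, 47 and 41 fragments at its summit. The squamous markers KRT5, KRT14, TP63, CDH1 and EPCAM had regions of both marks within 1 kb of a transcription start site (TSS) in every list. PTPRC, CD3E, COL1A2 and DCN had none, whereas VWF had H3K4me3 only. COL1A1, a fibroblast marker, had both marks, with H3K27ac at percentiles 15.8 and 6.11 in siCONT and siDLEU1 cells and H3K4me3 at 66.1 and 42.7.

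The sequences before the starts of 3 of these genes are shown, where edges of the regions fell in or next to them. Edges of H3K27ac regions also fell in the matching stretches of ITGB4, PLEC, ITGA3, ITGB1 and ITGA5, which are not shown. Each sequence shown is 250 bases of GRCh37 read on the gene's strand, up to the base before the outermost start of the cluster around the canonical TSS. A start inside LAMA3, from which its shorter transcripts run, is given as well. Capitals mark matches to the AP-1 motif TGANTCA, the Sp1 box GGGCGG and the core of interferon-stimulated response elements (GAAA, 2 bases of any kind, GAAA), searched on both strands.
COL17A1, chr10:105845639-105845888, minus strand: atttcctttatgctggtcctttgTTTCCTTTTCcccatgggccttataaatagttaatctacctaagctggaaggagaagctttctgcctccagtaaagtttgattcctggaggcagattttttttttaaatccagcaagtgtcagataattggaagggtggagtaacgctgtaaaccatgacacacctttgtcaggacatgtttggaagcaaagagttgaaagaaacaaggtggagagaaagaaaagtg
LAMA3 first start, chr18:21269167-21269416, plus strand: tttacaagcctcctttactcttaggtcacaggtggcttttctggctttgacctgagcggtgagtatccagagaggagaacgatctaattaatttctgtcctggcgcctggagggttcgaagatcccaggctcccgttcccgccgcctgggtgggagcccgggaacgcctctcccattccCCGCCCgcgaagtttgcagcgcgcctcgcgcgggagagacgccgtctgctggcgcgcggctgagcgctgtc
LAMA3 internal start, chr18:21452734-21452983, plus strand: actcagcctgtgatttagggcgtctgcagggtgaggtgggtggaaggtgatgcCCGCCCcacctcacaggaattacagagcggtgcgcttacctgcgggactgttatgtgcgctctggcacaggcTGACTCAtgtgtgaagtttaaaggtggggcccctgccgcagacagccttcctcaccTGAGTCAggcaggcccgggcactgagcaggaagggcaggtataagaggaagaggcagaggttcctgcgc
LAMB3, chr1:209825771-209826020, minus strand: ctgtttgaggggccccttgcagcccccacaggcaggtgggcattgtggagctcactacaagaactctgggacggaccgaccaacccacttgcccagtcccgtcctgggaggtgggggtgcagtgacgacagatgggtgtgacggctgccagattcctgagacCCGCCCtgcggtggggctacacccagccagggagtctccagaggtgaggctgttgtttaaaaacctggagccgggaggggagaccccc

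The AP-1 motif was found at the internal start of LAMA3, 125 and 69 bases before it, and in none of the other sequences shown. Of 24019 promoters of the same length, 5.8% held this motif and 0.279% held it at 2 or more positions. The Sp1 box, which 47.3% of promoters held, lay in every sequence shown but that of COL17A1. The response element core, present in 3.0% of promoters, was found here in COL17A1 only, 227 bases before the start. Matches to different motifs did not overlap. The COL17A1 stretch was 40.4% G and C, beside a median of 58.8% over all promoters. A match describes letters only, and no binding was measured.

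H3K27ac at these genes sat at their starts. Of 20 siCONT regions in the 9 gene windows, 18 lay within 1 kb of an annotated start of the same gene, and 19 of 20 siDLEU1 regions did. All 20 in each list overlapped an H3K4me3 region, as did 88.6% and 93.7% of all H3K27ac regions. H3K4me3 spread further, with 97 siCONT regions and 80 siDLEU1 regions, of which 57 and 47 lay away from the starts. Only 23.7% and 21.2% of these H3K4me3 regions overlapped H3K27ac, where 33.1% and 27.3% of all H3K4me3 regions did. The 9 genes have from 5 (LAMB3) to 25 (ITGB1) annotated starts each. The share of regions near a start was not taken over the whole lists, so the placement of neither mark can be called particular to these genes.

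**Figure D1:**
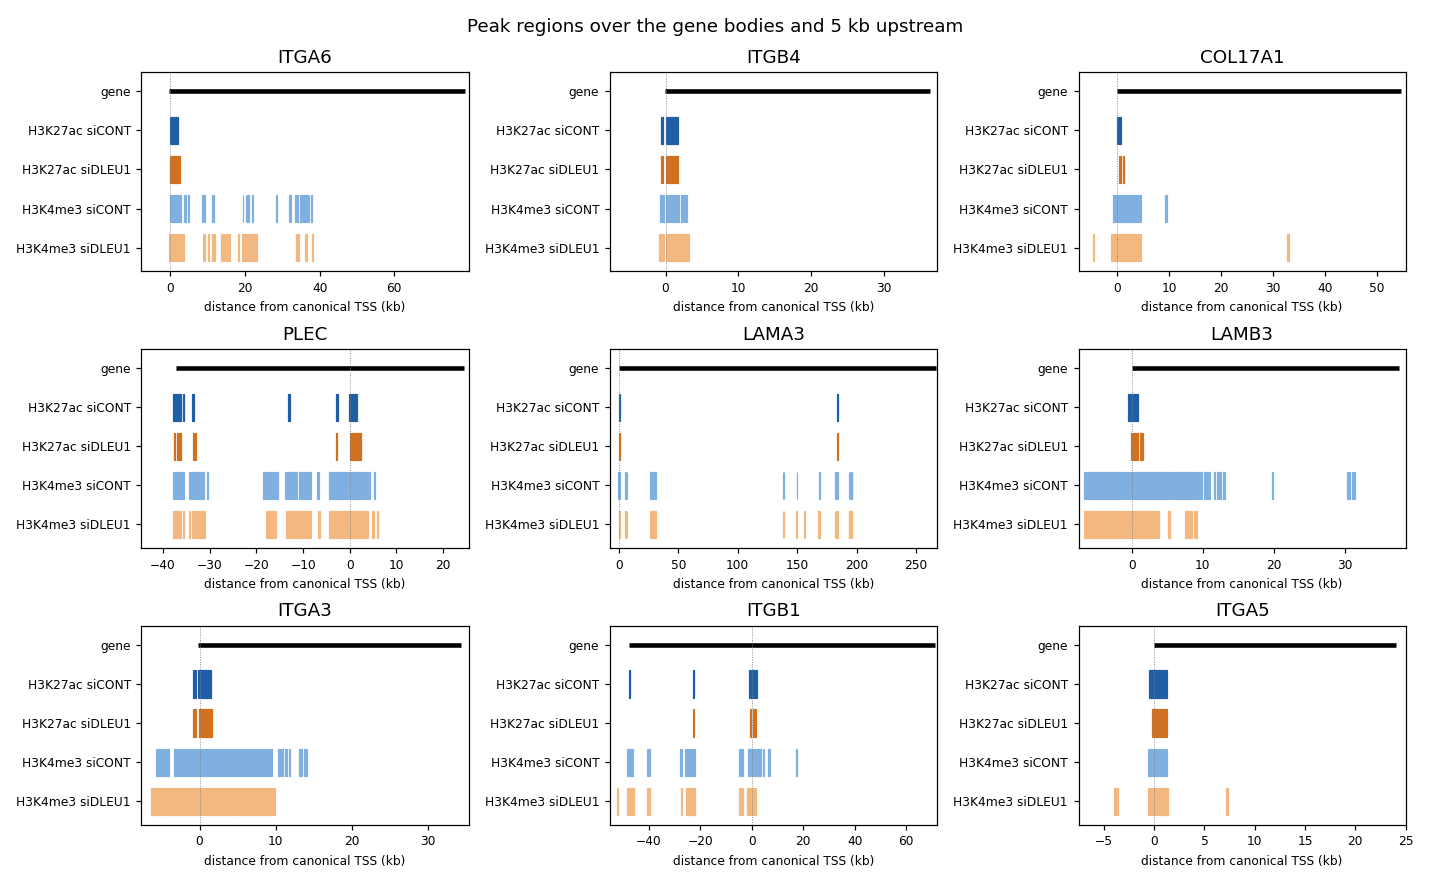
Peak regions of each list over the 9 genes, drawn by distance from the canonical TSS in kb with transcription running to the right. Black lines are the annotated genes, dark bars H3K27ac and light bars H3K4me3. The 20 H3K27ac regions of each siRNA cluster at gene starts, including the internal start of LAMA3 and the upstream starts of PLEC.

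Most H3K27ac regions of these genes were found under both siRNAs. Of the 20 siCONT regions, 17 were overlapped by at least 1 bp in siDLEU1 cells (85.0%, 95% Wilson interval 64.0 to 94.8), and over the whole list 22.2% of regions were not overlapped. The 3 not overlapped were 467 and 195 bp regions of PLEC and a 224 bp region of ITGB1, with 30, 16 and 42 fragments at the summit. Of the 20 siDLEU1 regions, 18 were overlapped in siCONT cells (90%, 69.9 to 97.2), against 1.24% not overlapped over the list. The remaining 2 were narrow regions inside LAMB3 and COL17A1, with 27 and 26 fragments. None of these 5 regions ranked above percentile 21.5 of its list.

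The length covered by H3K27ac in each window changed by less than 1.5-fold for all 9 genes. None was called lower and none higher, while 32.4% of the 14368 genes with H3K27ac in siCONT cells were lower by 1.5-fold or more and 0.334% higher. LAMA3 (0.682) and ITGB1 (0.692) lay near the limit. At LAMB3 and COL17A1 the siDLEU1 length took in a further weak region, at percentiles 3.14 and 6.84. Their regions found under both siRNAs went from 1423 to 886 bp and from 702 to 382 bp. The median ratio of siDLEU1 to siCONT was 0.940 over the 9 genes and 0.760 over all genes. Summed over the 9 windows the ratio was 0.898, and it was 0.783 when regions with a −log10 q under 10 were left out. The H3K27ac list of siDLEU1 cells was the smaller and narrower of the pair: its median region was 608 bp wide, beside 750 bp in siCONT cells.

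**Figure D2:**
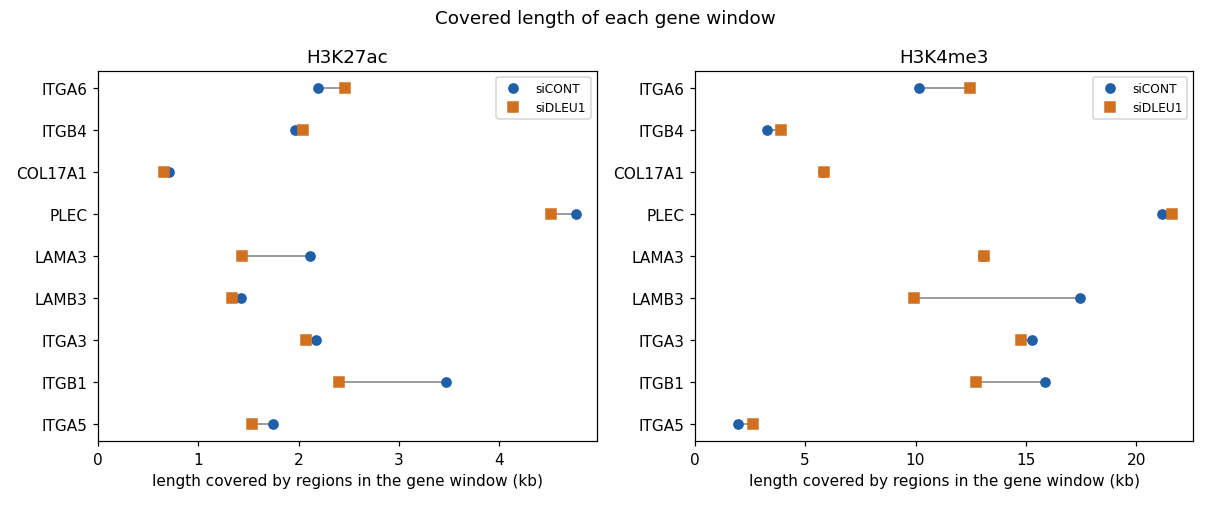
Length covered by regions in each gene window, in kb, for H3K27ac (left) and H3K4me3 (right), with circles for siCONT and squares for siDLEU1. LAMB3 shows the widest gap in H3K4me3, from 17475 to 9931 bp, while the H3K27ac values of ITGB4, COL17A1 and LAMB3 lie close together.

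Because fold enrichment cannot be set side by side between lists, the strongest region of each window was ranked within its own list, with 100 for the top. By this rank, H3K27ac fell by 20 points or more at 2 of the 9 genes, LAMB3 and ITGB1, and rose by as much at none. Over all genes, 19.1% fell that far and 6.71% rose. The median change was −0.32 points over the 9 genes and −4.77 over all genes.

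At the core hemidesmosome genes no H3K27ac rank by fold enrichment changed by 20 points. ITGA6 (chr2:173292082-173371187) held 1 region with its summit in the first exon, 2189 bp wide in siCONT cells and 2457 bp in siDLEU1 cells, at percentiles 76.4 and 73.9. ITGB4 (chr17:73717408-73753899) held 2 regions on either side of its start, and the stronger ranked at 87.7 and 90.9. In siCONT cells these regions ran to 73717198 and from 73717565.

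PLEC (chr8:144989321-145050902) starts at many alternative first exons, and its H3K27ac followed them. The window held 6 siCONT and 5 siDLEU1 regions that covered 4764 and 4517 bp. Its strongest region lay at the most upstream starts, at −36979 bp from the canonical TSS, at percentiles 68.3 and 70.7. COL17A1 (chr10:105791044-105845638) carried the weakest H3K27ac of the 9 genes, at percentiles 0.601 and 12.9. This apparent rise came with the same number of fragments at the summit, 30 in both lists, and a local background of 2.0 control fragments in siCONT cells and 0.439 in siDLEU1 cells.

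The laminin-332 genes differed among themselves in H3K27ac. LAMA3 (chr18:21269417-21536186) held a region at its first start, 1387 bp wide in siCONT cells and 938 bp in siDLEU1 cells, at percentiles 64.2 and 63.9. A further region lay in an intron at the internal start, with its siCONT summit 183837 bp downstream, and measured 721 and 499 bp. The siCONT region covered that start, whereas the siDLEU1 region began past it, at 21453126. In siDLEU1 cells at the first start the region began at 21269370, inside the stretch printed.

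LAMB3 (chr1:209788215-209825770) went from 1 region of 1423 bp to 2 regions that together covered 1337 bp, and its percentile fell from 47.4 to 25.1. The siCONT region took in the whole LAMB3 stretch printed, whereas the siDLEU1 region ended inside it, at 209825833.

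ITGB1 and ITGA3 had the highest H3K27ac ranks of the 9 genes in siCONT cells. ITGB1 (chr10:33176201-33294720) stood at percentile 96.5 in siCONT cells and 76.2 in siDLEU1 cells. ITGA3 (chr17:48133332-48167845) stood at 92.3 and 74.2, a change of −18.1 points that did not reach the limit of 20. ITGA5 (chr12:54789045-54813050) moved the other way, from 79.9 to 89.1, and its single region at the first exon narrowed from 1743 to 1536 bp. Starts of other genes lay in the same regions or within 1 kb of them, namely PICART1 at ITGA3, ITGB1-DT at ITGB1 and GPR84-AS1 at ITGA5. The share of each was not tested.

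The falls at LAMB3, ITGB1 and ITGA3 came with a rise in the local background by which enrichment is divided. At the summits this background went from 0.542 to 1.0 control fragments at LAMB3, from 0.497 to 1.0 at ITGB1 and from 0.655 to 1.0 at ITGA3, where 1.0 equals a single fragment of the control library. Ranked by fragments at the summit alone, the changes were −5.72 points at LAMB3, −2.69 at ITGB1 and −3.28 at ITGA3. By that measure the median was −4.11 points over the genes with a region within 1 kb of a start in both lists. Genes left without such a region in siDLEU1 cells were not counted there, unlike in the median by fold enrichment. Over the 9 genes the median change by fragments was −5.16 points, and no member changed by 20 points. LAMA3 then had the largest change among the 9, −11.6 points, and ITGA5 alone was above 0, at 6.07 points. ITGB4, COL17A1 and PLEC, above 0 by fold enrichment, were at −9.33, −9.23 and −0.617 points by fragments.

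**Figure D3:**
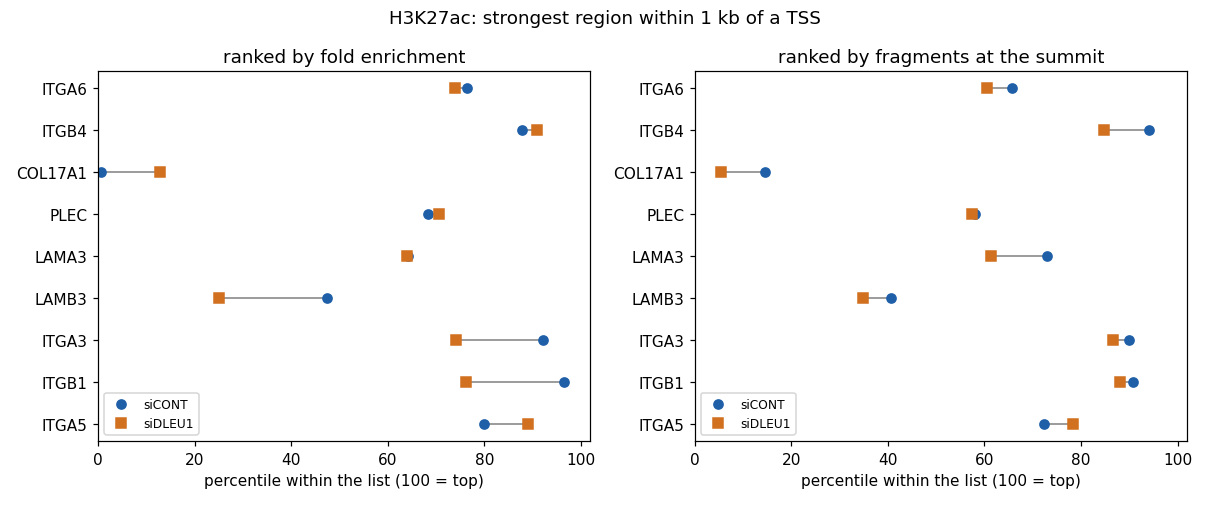
Percentile of the strongest H3K27ac region within 1 kb of a start, ranked by fold enrichment (left) and by fragments at the summit (right), with circles for siCONT and squares for siDLEU1. The long falls of LAMB3 and ITGB1 on the left measure −5.72 and −2.69 points on the right, where COL17A1 changes by −9.23 points instead of rising.

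Scaled to fragments per 1 M reads (FPM), the H3K27ac summits were lower in siDLEU1 cells at all 9 genes. A summit value averages over the cells and comes from 1 library. Fewer cells with the mark, less of the mark per cell and a difference between libraries cannot be told apart. ITGB4 had 160 fragments in siCONT cells and 108 in siDLEU1 cells, or 7.45 and 3.67 FPM, a ratio of 0.493 (95% interval 0.383 to 0.633). LAMA3 went from 5.12 to 2.69 FPM (0.525, 0.388 to 0.707) and ITGA3 from 6.75 to 3.78 (0.559, 0.433 to 0.721). At ITGB1 the values were 6.89 and 3.88 (0.563, 0.437 to 0.723), and at ITGA6 4.61 and 2.65 (0.576, 0.422 to 0.782).

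The ratios of the other 4 genes were nearer to 1. PLEC had 4.05 and 2.55 FPM (0.630, 0.456 to 0.868), LAMB3 2.84 and 1.84 (0.647, 0.440 to 0.948) and ITGA5 5.08 and 3.33 (0.657, 0.495 to 0.871). At COL17A1 the values were 1.40 and 1.02, and the interval of the ratio, 0.425 to 1.25, took in 1. The median ratio of the 9 genes was 0.576, beside 0.579 over 11829 genes with an interquartile range of 0.525 to 0.641. Only genes whose strongest regions overlapped between the lists were counted there. The lower summits were therefore shared with genes that kept such a region. The intervals cover counting error only and hold for these libraries.

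**Figure D4:**
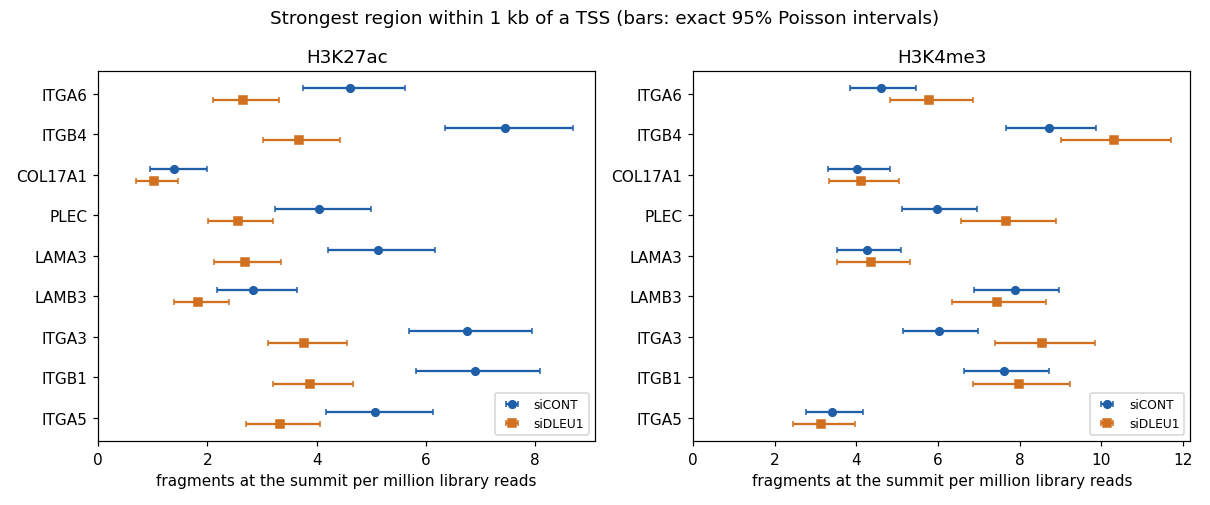
Fragments at the summit of the strongest region within 1 kb of a start, in fragments per 1 M library reads, for H3K27ac (left) and H3K4me3 (right), with circles for siCONT, squares for siDLEU1 and exact 95% Poisson intervals. H3K27ac is lower in siDLEU1 cells at all 9 genes, by a median ratio of 0.576, while the H3K4me3 ratios run from 0.919 to 1.42.

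H3K4me3 at the same genes was divided differently. Of the 97 siCONT regions, 68 were overlapped in siDLEU1 cells (70.1%, 60.4 to 78.3), against 23.6% not overlapped over the whole list. Of the 80 siDLEU1 regions, 64 were overlapped (80.0%, 70.0 to 87.3), against 21.2% not overlapped. At gene starts 37 of 40 siCONT regions were overlapped, and away from them 31 of 57. The same split was not made for the whole list, so this difference cannot be called particular to these genes. The siCONT regions without a counterpart were narrow and low, at most 910 bp wide and none above percentile 45.3. The 16 siDLEU1 regions without one were at most 816 bp wide and reached percentile 62.0, at ITGA6.

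The covered length of H3K4me3 fell by 1.5-fold or more at LAMB3 alone and rose as far at none. Among 15426 genes, 17.5% fell that far and 6.86% rose. No member moved by 20 percentile points, a limit that 8.36% of genes passed downwards and 7.14% upwards. The median ratio of covered length was 1.01 over the 9 genes and 0.894 over all genes, and the median change of percentile was −0.24 and 0.183 points.

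At LAMB3 the broad domain of H3K4me3 around the start was called narrower on the side of the gene body. Its covered length was 17475 bp in siCONT cells and 9931 bp in siDLEU1 cells, a ratio of 0.568. The 6244 bp siCONT region over the start, chr1:209820214-209826457, met 3 siDLEU1 regions that summed to 4654 bp, of which the one over the start was 3587 bp wide. Upstream, a 5858 bp region met 3 that summed to 5711 bp. A further 8 of the 12 siCONT regions, all downstream of the start and with 22 to 48 fragments, had no counterpart.

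At the summit of the LAMB3 domain the difference was within counting error. It held 7.88 FPM in siCONT cells and 7.44 in siDLEU1 cells, a ratio of 0.944 (0.768 to 1.16), at percentiles 99.8 and 97.7. Inside the gene, a region 8904 bp from the start held 4.40 FPM in siCONT cells, and the siDLEU1 region at 8865 bp held 1.75. Nearer the start, a siDLEU1 region at 3250 bp held 76 fragments, or 3.41 FPM, over a local background of 4.0 control fragments. It ranked at percentile 16.3 by fold enrichment and 78.1 by fragments. The part of the local background in the narrower call was not tested. LAMA3 did not share this pattern, with 17 and 18 regions that covered 13037 and 13084 bp.

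At other genes regions were joined, split or without a counterpart, while the length they covered stayed similar. ITGA3 went from 11 regions to 3, yet 15286 and 14760 bp were covered. Of its 11 siCONT regions, 6 had no counterpart, all downstream of the start and 206 to 419 bp wide. Another 4 siCONT regions were overlapped by 1 siDLEU1 region of 9619 bp. ITGB4 had 1912 and 792 bp regions in siCONT cells that a single 3183 bp region joined in siDLEU1 cells. COL17A1 showed the reverse, a 4664 bp siCONT region that 2 siDLEU1 regions of 2241 and 2032 bp replaced. PLEC went from 22 regions to 14 over 21182 and 21615 bp, and 3 of the 22 had no counterpart.

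**Figure D5:**
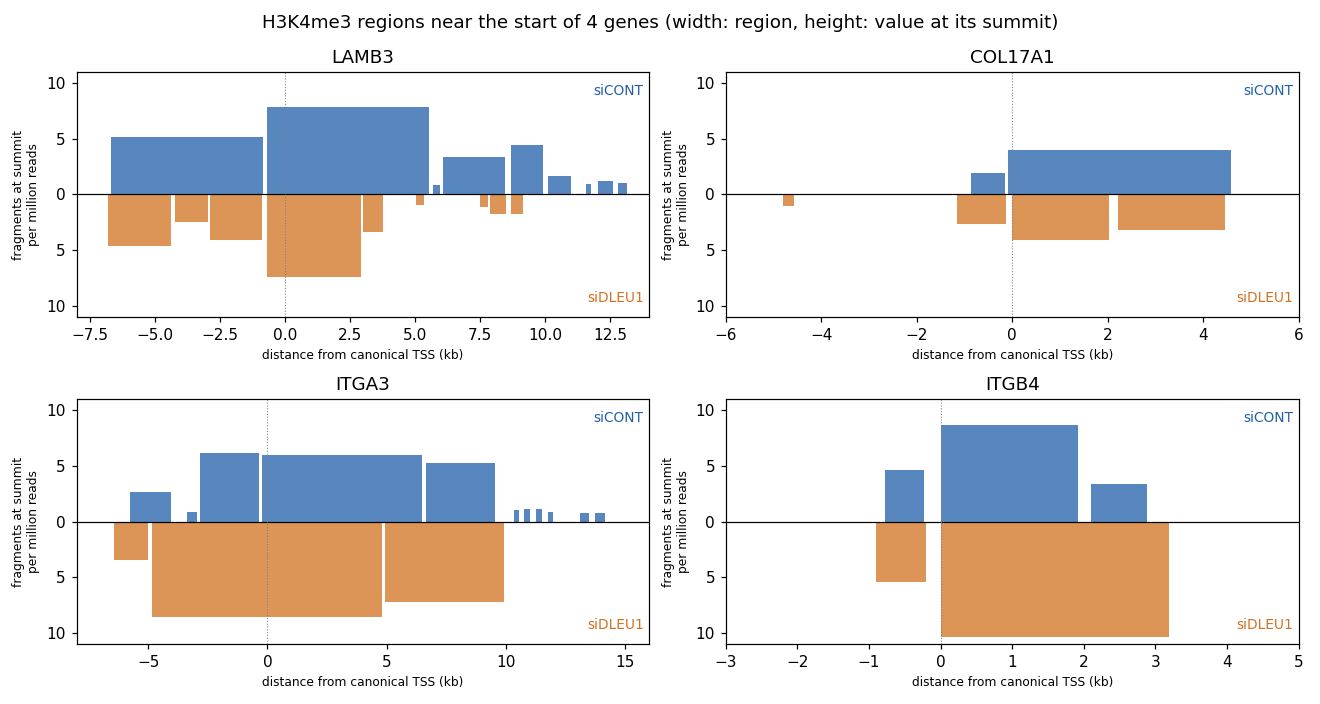
H3K4me3 regions near the starts of LAMB3, COL17A1, ITGA3 and ITGB4 by distance from the canonical TSS in kb, where the width of a bar is the region and its height the fragments per 1 M reads at the summit, with siCONT upward and siDLEU1 downward. At LAMB3 the siCONT region of 6244 bp faces a siDLEU1 region of 3587 bp over the start, at 7.88 and 7.44 FPM.

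ITGA6, ITGB1 and ITGA5 differed in covered H3K4me3 length by ratios of 1.23, 0.802 and 1.36, none of which passed the limit. ITGA6 had 17 and 16 regions over 10147 and 12480 bp, of which 16 and 14 lay away from its annotated starts and 7 and 8 had no counterpart. ITGB1 had 11 and 10 regions over 15859 and 12723 bp, at percentiles 99.8 and 99.5. ITGA5 had the least H3K4me3, a region of 1945 bp in siCONT cells and 1968 bp in siDLEU1 cells, with 2 further siDLEU1 regions of 254 and 432 bp.

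The H3K4me3 summits in FPM were not lower as a group. The ratios ran from 0.919 at ITGA5 to 1.42 at ITGA3, with a median of 1.05. The median was 1.16 over 11389 genes, but only genes whose strongest regions overlapped were counted there. That limit was not set for the 9, and their median was the ratio of ITGB1. Only those of PLEC (1.28, 1.03 to 1.59) and ITGA3 (1.42, 1.15 to 1.76) had intervals above 1. At ITGA3 the summits compared lay 5461 and 164 bp from the start, at COL17A1 2847 and 409 bp, and at ITGB1 the strongest regions did not overlap, so those ratios compare different positions.

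Among related genes outside the 9, the median ratios of H3K27ac width lay on both sides of the 0.760 of all genes, of which 32.4% were lower by 1.5-fold or more. Of 10 genes for other laminin chains and basement membrane proteins, 7 had H3K27ac in siCONT cells, with a median ratio of 0.715 and a median change of rank of 4.48 points. Of these, 3 were lower in width, among them LAMB2 (0.475) and HSPG2, which encodes perlecan (0.613). COL7A1, the anchoring fibril collagen that lies beneath hemidesmosomes, was higher, at 1.53. By rank, 2 genes of this list were higher by 20 points or more and 0 lower, beside 6.71% and 19.1% of all genes. Of 9 other integrin subunits, 6 had H3K27ac, with a median ratio of 0.673 and a median change of rank of −13.7 points, and ITGA2 (0.512), ITGAV (0.633) and ITGB6 were lower, the last with no region left in siDLEU1 cells.

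All 14 hemidesmosome and focal adhesion partners had H3K27ac, with a median ratio of 0.795 and a median change of rank of −2.46 points. DST, whose epithelial product joins integrins to keratin (0.666), and CD151, a tetraspanin that binds laminin receptors (0.504), were lower in width, 2 of 14, and none was higher. By rank, 3 partners were lower and 2 higher by 20 points or more, beside 19.1% and 6.71% of all genes. By the same limit, 2 of the 6 integrins were lower and 0 higher. These ranks are by fold enrichment, and ranks by fragments are not given for these lists. In H3K4me3, the covered length was lower at 0 of the 8 laminin and basement membrane genes with a siCONT region, 3 of 7 integrins and 2 of 14 partners, beside 17.5% of all genes. It was higher at 2 partners and at no gene of the other lists, beside 6.86%.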

How the data were processed

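HSC3 cells were profiled 72 h after transfection, with 1 library for each of 2 siRNAs and 2 marks. Per the labels and the methods of the study, Ion Proton reads were mapped to hg19 with bowtie2 and peaks were called with MACS2. The control of each call and the settings are not given in the sources used here. The deposited lists give the fold enrichment at the summit, a linear ratio to the local background, and the −log10 p and −log10 q that MACS2 assigned. A score and the summit offset were deposited as well, and the score was not used. The labels name siDLEU1 without the number that the methods give.

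Regions on chromosomes 1 to 22 and X were used, and 0 extended past the ends of GRCh37 chromosomes. Genes were the 19143 protein-coding and 4992 lncRNA genes of GENCODE v44 on GRCh37 that have a curated RefSeq transcript of the same symbol. Overlap, covered length and percentile within a list were compared without a test, and changes past 1.5-fold or 20 points were called. The members and gene lists were chosen with earlier results of these data known. All 9 genes are named, with the genes of the related lists called in H3K27ac width, some of which are not reported here.

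Whole fragments at each summit and the depth were solved from fold enrichment and p, which succeeded for 100% of regions. On simulated lists of 4957 and 4938 peaks, 99.96% and 99.82% were recovered exactly. Those lists were made with the same formula that was solved. They check the solving only, and cannot show that MACS2 computed the deposited values in this way. For the depth, the fragment length was taken as the width of the narrowest region of each list. Ratios of fragments per 1 M reads have exact 95% intervals. Alternatives covered the threshold, stitching, windows, overlap, list size and ranking. Python 3.11.15, pandas 2.3.3, numpy 2.4.6, scipy 1.17.1 and matplotlib 3.10.9 were used.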

Additional observations from a re-analysis of the deposited data

How the results depend on the processing

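No paired analysis was possible because each siRNA and mark has a single library and no replicate numbers to match. Depth limits the narrow regions, many of which rest on under 50 fragments.

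The ratio of H3K27ac length covered in the 9 windows, 0.898, was 0.783 with a −log10 q of at least 10, 0.947 with regions within 1 kb stitched, 0.965 in gene bodies only, 0.893 with 20 kb upstream, 0.954 with equal numbers of regions and 0.957 in the window of the canonical transcript, an alternative chosen after seeing the data. In the same order, that of H3K4me3, 0.933, was 0.955, 0.897, 0.904, 0.941, 0.939 and 0.919. All stayed below 1.

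The median H3K27ac percentile change, −0.32 points, was −10.35 at the stricter q, −2.03 stitched, 1.98 with equal numbers, −2.73 ranked by p and −5.16 ranked by fragments, so its sign was not stable. For H3K4me3, −0.24 became −0.46, −0.39, −0.23, −0.37 and −0.41.

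Overlap of siCONT H3K27ac regions, 85.0%, was 100% in the canonical window, and that of siDLEU1 regions, 90%, was 100% at the stricter q and when stitched. For H3K4me3, 70.1% of siCONT regions became 87.5% at the stricter q, 78.9% stitched and 40.2% when 50% of both regions had to overlap, and 80.0% of siDLEU1 regions became 91.4% and 48.8% under the first and last of these. A TSS window of 3 kb left the median ratios of summit fragments at 0.576 and 1.05.

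Of 284 values of single genes under an alternative, 272 stayed on the same side of the limits, 12 crossed one and 0 reversed a call. Only a value already called could count as reversed, and an uncalled value that changed sign counted as staying. The H3K27ac rank changes of COL17A1 and ITGB4, 12.3 and 3.12 points, became −9.23 and −9.33 ranked by fragments. ITGA3 passed the limit in H3K27ac rank at the stricter q (−30.9 points) and when stitched (−24.2). The calls of ITGB1 and LAMB3 were lost with equal numbers (−19.9 and −16.3), ranked by p (−12.4 and −18.0) and ranked by fragments (−2.69 and −5.72). LAMB3 had no siDLEU1 H3K27ac left at the stricter q. In H3K4me3 width, ITGA6 was 2.24 at the stricter q, ITGA5 1.52 with 20 kb upstream and ITGB1 0.640 in the canonical window. The causes were not tested.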
